A study of Mus musculus with 23 samples.

Results

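Open chromatin of the duodenal epithelium was compared with that of the colonic epithelium in juvenile mice. The comparison used 6 of the 23 ATAC-seq libraries of the series, chosen by their titles: 3 libraries of juvenile duodenum, taken at 12 days of age, and 3 of juvenile colon, taken at 15 days. ATAC-seq inserts sequencing adapters into DNA that nucleosomes and other proteins leave free, so that stacks of reads, called as peaks, mark accessible regions. The juvenile duodenum libraries held the whole epithelium released by EDTA, villus and crypt cells together, and the number of mice behind each library is not given. Each juvenile colon library combined the epithelium of 6 pups. No genotype, treatment or sex is stated for either group. Tissue differs between the groups together with the 3 days of age, the pooling and the read depth, so these cannot be told apart.

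The duodenum is the most proximal segment of the small intestine and carries villi, whose enterocytes digest and absorb nutrients. The colon has no villi and is lined by absorptive colonocytes and many mucus-secreting goblet cells. In suckling pups the small intestine is adapted to milk. Enhancers and promoters in use in a cell type are typically accessible there, and enhancers differ more between tissues than promoters do. The labelled tissues could not be checked against marker genes, because the peak coordinates are those of the mouse build mm9 and no annotation of that build was used. Regions are therefore named by their mm9 coordinates alone, without genes or sequences.

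The 2 tissues differed in what was sequenced. Kept reads, after the authors' caller had reduced reads at the same position and strand to 1, numbered 18.2, 22.9 and 16.7 M (in units of 1000000) in juvenile duodenum 1, 2 and 3. They numbered 39.0, 32.0 and 47.9 M in juvenile colon 1, 2 and 3. Repeated positions made up 49.9% ± 2.30 (SD, n = 3) of the duodenum reads and 18.8% ± 0.923 (SD, n = 3) of the colon reads. The duodenum libraries nevertheless gave more peaks, 45258, 52365 and 49444, than the colon libraries, with 22299, 20236 and 17377. Duodenal peaks were narrower, with median widths of 177 to 201 bp against 268 to 288 bp, and their reads had been extended to 88 to 100 bp against 147 to 149 bp. Their median fold enrichment over local background was 6.78 ± 0.135 (SD, n = 3) against 4.94 ± 0.196 in colon. In none of these measures did the groups overlap, and with 3 libraries against 3 the smallest p of a two-sided exact permutation test is 0.1. Because the lists differ so much in length, presence was read both on the full lists and on lists of equal length, the strongest 17377 peaks of each library by −log10 p.

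Merging the equal-length lists of the 6 libraries gave 34897 regions, and 6863 of them (19.7%) held a peak in every library. The regions exclusive to the duodenum, called in each duodenum library but not in colon, numbered 3690, or 10.6% of all regions. The regions exclusive to the colon numbered 2142, or 6.14%. On the full lists there were 76147 regions, 10243 of them (13.5%) with a peak in all 6 libraries. There the duodenum-exclusive regions rose to 16501 (21.7%) and the colon-exclusive regions shrank to 471 (0.619%). Libraries of the same tissue shared more regions than libraries of different tissue. The Jaccard index, the regions called in both libraries over those called in either, was 0.648 ± 0.00710 over the 3 pairs of duodenum libraries and 0.590 ± 0.0103 over the 3 pairs of colon libraries. Over the 9 pairs of a duodenum with a colon library it was 0.365 ± 0.0123 (all SD), and no such pair, at 0.346 to 0.385, reached the lowest pair within a tissue, 0.583.

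**Figure D1:**
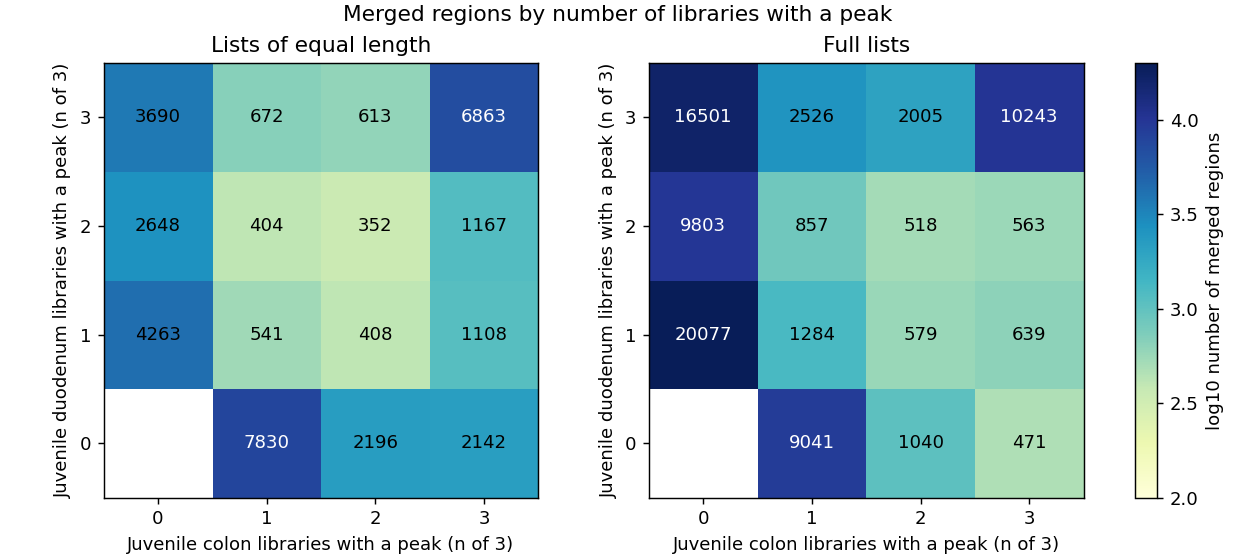
Number of merged regions by how many of the 3 juvenile duodenum libraries (vertical axis) and of the 3 juvenile colon libraries (horizontal axis) held a peak, on lists of equal length (left) and on full lists (right), with colour for the log10 number. The corner of 3 duodenum and 0 colon libraries goes from 3690 to 16501 regions between the panels, while that of 0 duodenum and 3 colon libraries goes from 2142 to 471.

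The full lists admit far more weaker peaks in duodenum than in colon. The equal-length lists hold 38.4%, 33.2% and 35.1% of the peaks of duodenum 1, 2 and 3, but 77.9%, 85.9% and 100% of those of colon 1, 2 and 3. A duodenum-exclusive region can therefore gain a peak on the full lists from colon 1 or 2 alone, and a colon-exclusive region from any duodenum library. Of the 3690 duodenum-exclusive regions, 3510 (95.1%) had no peak in any colon library on the full lists. Of the 2142 colon-exclusive regions, 341 (15.9%) had no duodenal peak on the full lists, 1801 (84.1%) had at least 1, and 938 (43.8%) had one in all 3 duodenum libraries. The gap between 95.1% and 15.9% cannot be told apart from this difference in list length. The equal-length lists kept duodenal peaks down to a normalised pileup of 0.824, 0.871 and 0.958 in libraries 1 to 3. In colon they kept peaks down to 0.410, 0.437 and 0.272. The pileup of a peak is the height of its stack of extended reads at the summit, and it was normalised to 1000000 kept reads. A duodenal peak could therefore be taller than the peaks that made a region colon-exclusive and still fall outside its library's list.

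In the 2142 colon-exclusive regions the colon peaks had median normalised pileups of 0.692, 0.718 and 0.543 in colon 1, 2 and 3. The weaker duodenal peaks in the same regions, present on the full lists in 1229, 1548 and 1305 of them, had medians of 0.659, 0.697 and 0.778. In the 938 regions with a peak in all 6 full lists, the medians were 0.714, 0.697 and 0.838 in duodenum and 0.718, 0.781 and 0.564 in colon. These medians overlapped between tissues, in regions chosen by rank so that every duodenal peak lay below its list's limit. The duodenum-exclusive peaks were taller, with medians of 1.26, 1.48 and 1.62. The list limits fix this order, since no duodenal peak under 0.824, 0.871 and 0.958 was kept, above the colon-exclusive medians. On full lists the medians were 0.769, 0.871 and 0.958 in the duodenum-exclusive regions and 0.564, 0.593 and 0.460 in the colon-exclusive regions. On equal-length lists, regions with a peak in all 6 libraries were the tallest in both tissues. Their medians were 1.81, 1.79 and 2.1 in duodenum and 1.13, 1.22 and 0.856 in colon. They were also the widest, with a median of 594 bp against 338 bp for duodenum-exclusive and 406 bp for colon-exclusive regions. A wider merged region has more room to overlap a peak of any library, and its part in this was not tested.

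**Figure D2:**
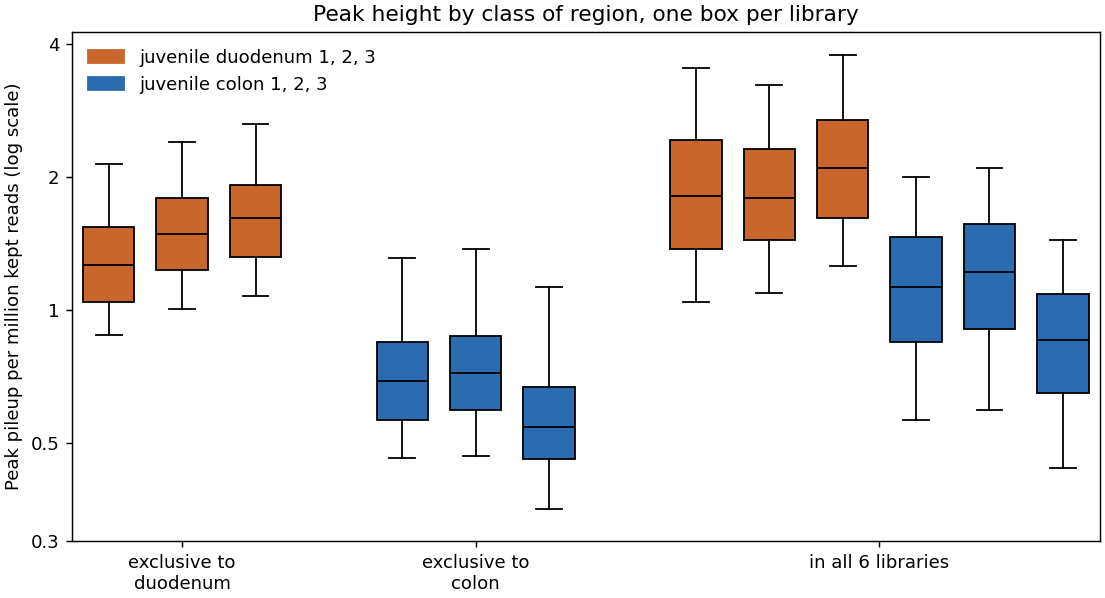
Normalised peak pileup, per 1000000 kept reads (log scale), in regions exclusive to juvenile duodenum, exclusive to juvenile colon and present in all 6 libraries, on lists of equal length, with 1 box per library, replicates 1 to 3 from left to right (line, median; box, quartiles; whiskers, 5th and 95th percentiles over regions). Medians run from 1.26 to 1.62 in the duodenum-exclusive regions and from 0.543 to 0.718 in the colon-exclusive regions. The lists kept duodenal peaks only from 0.824, 0.871 and 0.958 upwards, but colon peaks from 0.410, 0.437 and 0.272.

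The tallest duodenum-exclusive regions were single sites spread over the genome. The 10 with the highest mean pileup lay on chromosomes 1, 2, 4, 7, 8, 12, 14, 15 and 17, and 9 of them had no peak in any juvenile colon library on the full lists. The region chr14:104389046-104389816, 771 bp wide, stood at a normalised pileup of 3.3, 3.22 and 3.89 in duodenum 1, 2 and 3. Each of the 12 adult and geriatric duodenum libraries had a peak there, and none of the 5 colon libraries of those ages. The region chr12:13816096-13816536 stood at 3.46, 3.70 and 3.47 and had a peak in 11 of those 12 duodenum libraries and in no later colon library. These 2 sites were thus marked in the duodenum at every age sampled, with 1 library missing for the second.

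Some other tall duodenal sites were not seen, or hardly seen, after the juvenile stage. The region chr17:59509186-59509770 stood at 2.97, 3.66 and 3.89 in duodenum 1, 2 and 3, chr7:94452215-94452860 at 3.3, 3.31 and 3.35, and chr2:7066628-7067036 at 2.64, 3.49 and 3.71. None of these 3 regions had a peak in any of the 17 adult and geriatric libraries, on full lists. The second-tallest region, chr15:40986765-40987322, stood at 3.41, 3.22 and 4.07 and had a peak in 1 of the 12 later duodenum libraries and in no later colon library. Further sites lay between, with a peak in 8 of the 12 later duodenum libraries at chr4:24470553-24470987 and in 6 at chr1:142312312-142312705. The tallest of all, chr8:19884914-19885559, stood at 3.57, 3.53 and 4.31 and was less restricted. On full lists it had a peak in all 12 later duodenum libraries, in 1 juvenile colon library and in 2 later colon libraries.

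The tallest colon-exclusive regions were of another kind. Of the 10 with the highest mean pileup, 7 lay within 3001682 to 3037509 of chromosome 9, at the start of its sequence, 1 at chr11:3068672-3069035, 1 on chromosome Y and 1 was chrM:13042-16250 of the mitochondrial genome. Such chromosome ends are rich in repeats, where reads cannot be placed uniquely. The region chr9:3018330-3018683 stood at 5.41, 6.40 and 5.01 in colon 1, 2 and 3. It also had a peak in all 3 juvenile duodenum libraries on the full lists, in all 12 later duodenum libraries and in all 5 later colon libraries. The same presence in all 3 juvenile duodenum libraries held for 9 of the 10, and the region on chromosome Y, chrY:2890778-2892868, had a peak in 2. None of the 10 was therefore restricted to colon. Leaving out chromosomes Y and M and the first 3.3 Mb of every chromosome gave 3626 duodenum-exclusive and 2099 colon-exclusive regions, so these ends make up a small part of either count. The juvenile libraries also differed in their peaks on chromosome Y, with 5, 144 and 2 in duodenum 1, 2 and 3 against 96, 88 and 99 in colon, and 42 of the 116 merged regions of chromosome Y were colon-exclusive.

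The colon sites without any duodenal peak on the full lists were lower. They numbered 335 outside the chromosome ends, Y and M, and the tallest were chosen here after their values were seen. The region chr8:19925112-19925641 stood at 2.87, 2.97 and 2.44 in colon 1, 2 and 3 and chr8:56205583-56206433 at 2.46, 2.84 and 1.94. Both had peaks in adult or geriatric duodenum, in 8 and 7 of the 12 libraries. The first of them lies on the same stretch of chromosome 8 as the tallest duodenum-exclusive region, chr8:19884914-19885559.

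Sites open in colon and not in duodenum at every age were few. Only 5 of the 335 regions had a peak in all 5 later colon libraries and in none of the 12 later duodenum libraries on full lists. The tallest was chr7:52898885-52899373, at 1.10, 1.31 and 0.898 in juvenile colon 1, 2 and 3. The next was chr11:68932264-68932512, at 0.692, 0.749 and 0.710. The other 3 were chr1:34372262-34372618, chr17:82142406-82142799 and chr3:128692342-128692625, with means of 0.535, 0.504 and 0.442. By the same rule, 527 of the 3504 duodenum regions outside the ends, Y and M had a peak in all 12 later duodenum libraries and in no colon library of any age. A peak in every library is a harder test for 12 libraries than for 5, and absence is harder the longer the other tissue's lists. Regions seen in their juvenile group and in no later library numbered 425 in duodenum and 7 in colon.

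Whether the juvenile differences recurred in libraries that had no part in choosing the regions was asked of the adult (90 days) and geriatric (21 months) libraries. These were 12 duodenum libraries, villus and crypt separately, and 5 colon libraries, adult colon and geriatric proximal colon. On lists of equal length, 11355 peaks each, 27% ± 4.96 (SD, n = 12) of the duodenum-exclusive regions had a peak in a later duodenum library and 3.27% ± 0.805 (SD, n = 5) in a later colon library. Over all 34897 merged regions the shares were 28.4% ± 0.846 and 28.8% ± 3.28, so the duodenum-exclusive regions stood near that background in later duodenum and far below it in later colon. The lowest duodenum library, at 19%, stood above the highest colon library, at 4.09%. The difference was 23.8 percentage points (two-sided exact permutation test over libraries, p = 0.000323, adjusted p = 0.000646 over 4 such tests by the Benjamini-Hochberg method). A p of 0.000323 is the smallest that 12 against 5 libraries can give.

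The colon-exclusive regions were more often present in later colon than in later duodenum on lists of equal length, but not on full lists. A later colon library had a peak in 41.0% ± 6.86 (SD, n = 5) of them and a later duodenum library in 15.4% ± 3.02 (SD, n = 12), a difference of 25.6 points (two-sided exact permutation test, p = 0.000323, adjusted p = 0.000646). Against the shares over all merged regions, 28.8% and 28.4%, they stood above in colon and below in duodenum. The lowest later colon library stood at 33.1% and the highest later duodenum library at 21.8%. On the full lists the order of the means turned, with 69.8% ± 26.1 in colon and 74.3% ± 8.83 in duodenum, a difference of -4.44 points (exact permutation p = 0.581). Over all merged regions the full-list shares were 43.8% ± 14.3 in colon and 64.3% ± 5.47 in duodenum, and the colon-exclusive regions stood above both. The 2 geriatric proximal colon libraries, which have the shortest lists, stood at 33.1% and 51.9% there and the 3 adult colon libraries at 82.1% to 92.7%. Without geriatric proximal colon the full-list difference was 13.8 points (exact permutation p = 0.0176). For the duodenum-exclusive regions the full-list difference was 52.0 points (exact permutation p = 0.000323), with 65.8% ± 7.11 in later duodenum, again near the share of all merged regions, and 13.8% ± 10.1 in later colon. Villus and crypt libraries of one age may come from the same mice, which the labels do not say, and p-values over libraries would then be too small.

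**Figure D3:**
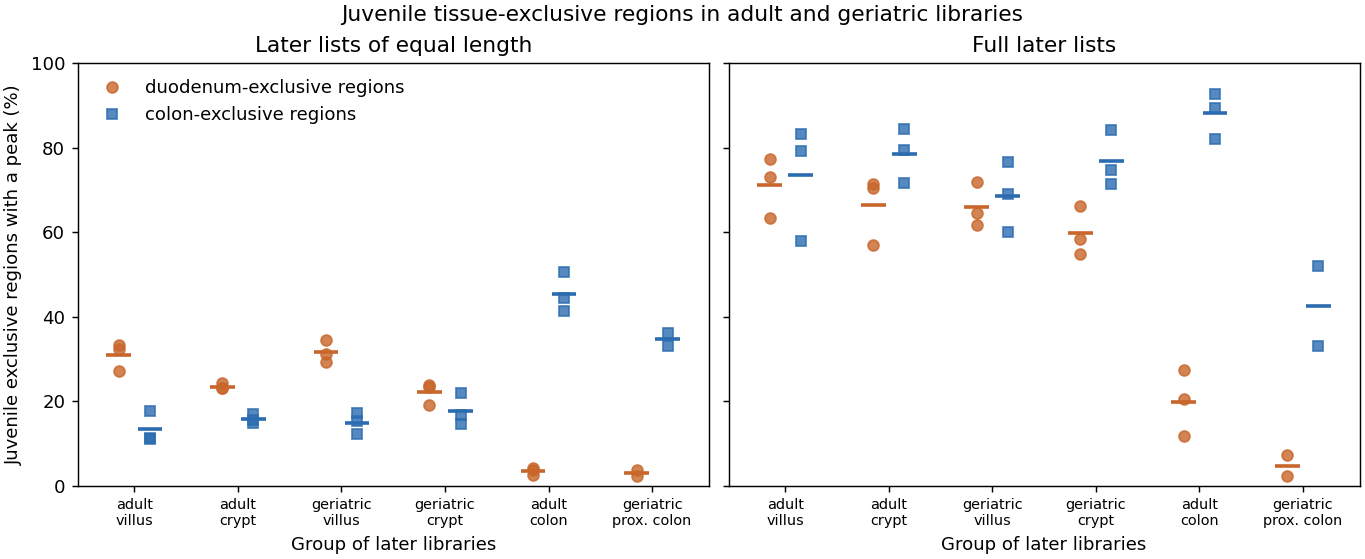
Percentage of juvenile duodenum-exclusive regions (circles, 3690 regions) and colon-exclusive regions (squares, 2142 regions) with a peak in each adult or geriatric library, by group, on later lists of equal length (left) and full lists (right); bars are group means. On equal lists the duodenum-exclusive regions stand at 19% to 34.5% in duodenum libraries and at 2.25% to 4.09% in colon libraries, and on full lists the colon-exclusive regions overlap between tissues.

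Within the later duodenum, the juvenile duodenum-exclusive regions were more often accessible in villus than in crypt on lists of equal length. The mean share was 30.9% ± 3.27 in adult villus, 31.6% ± 2.65 in geriatric villus, 23.5% ± 0.673 in adult crypt and 22.1% ± 2.70 in geriatric crypt (SD, n = 3 each). Over both ages the 6 villus libraries, at 27.2% to 34.5%, all stood above the 6 crypt libraries, at 19% to 24.2%. The difference was 8.5 points (two-sided exact permutation test, p = 0.00216, adjusted p = 0.00288). On full lists it was 5.56 points with overlapping libraries (exact permutation p = 0.188), so the call rests on lists of equal length. Over all merged regions villus and crypt stood at 28.3% ± 1.19 and 28.6% ± 0.266. This contrast was added after the values had been seen. The colon-exclusive regions stood 2.61 points lower in villus than in crypt, which did not pass (difference of -2.61, exact permutation p = 0.134). Regions with a peak in all 6 juvenile libraries were less often present in villus, at 75.2% ± 3.58, than in crypt, at 82.5% ± 1.48 (SD, n = 6; difference of -7.37, exact permutation p = 0.00216 on equal lists and 0.255 on full lists).

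Full lists also show in how many later libraries the juvenile sites held a peak. These counts were not made over all merged regions. Of the 3690 duodenum-exclusive regions, 1165 (31.6%) had a peak in all 12 later duodenum libraries and 444 (12.0%) in none. In the later colon, 2501 of them (67.8%) had no peak in any of the 5 libraries and 21 (0.569%) had one in all 5. Of the 2142 colon-exclusive regions, 505 (23.6%) had a peak in all 5 later colon libraries, and 580 (27.1%) had one in all 12 later duodenum libraries. The count for all 5 is limited by the shortest list, that of geriatric proximal colon 3. It had a peak in 33.1% of the colon-exclusive regions and in 24.3% of all merged regions. Only 69 colon-exclusive regions (3.22%) had no later duodenal peak. Of the 6863 regions with a peak in all 6 juvenile libraries, 4493 (65.5%) had a peak in all 17 later libraries as well.

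The authors also deposited lists of the regions that differ between juvenile duodenum and juvenile colon. The authors' lists hold 5809 regions for duodenum and 5944 for colon, with positions and no values, and rest on these same 6 libraries, so they are not independent evidence. On lists of equal length, a juvenile duodenum library had a peak in 66.5% ± 2.77 of the authors' duodenum list and a juvenile colon library in 3.59% ± 0.384 (SD, n = 3), a difference of 62.9 points. For the authors' colon list the shares were 32.6% ± 1.38 in duodenum and 83.4% ± 0.722 in colon, a difference of -50.8 points. No library of 1 tissue reached the other, and each exact permutation p was 0.1, the smallest possible. The full lists gave differences of 94.2 and -22.0 points. Of the authors' duodenum list, 5108 regions (87.9%) were called in each of the 3 duodenum libraries and never in colon on the full lists. Of the authors' colon list, 404 regions (6.80%) had a peak in all 3 colon and no duodenum library, and 3064 (51.5%) had a peak in all 6 libraries. These full-list counts move with the greater length of the duodenal lists. The authors' duodenum list overlapped 2620 (71.0%) of the duodenum-exclusive regions and their colon list 1517 (70.8%) of the colon-exclusive regions, each with 0 of the other set.

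The authors' deposited lists for adult tissues share no library with the juvenile comparison. Of the juvenile duodenum-exclusive regions, 1235 (33.5%) lay on the authors' list of 7013 regions higher in adult villus than in adult colon, and 22 (0.596%) on the opposite list of 7259 regions. Among all 34897 merged juvenile regions these shares were 7.97% and 15.2%. Of the colon-exclusive regions, 567 (26.5%) lay on the list higher in adult colon than in villus and 2 (0.0934%) on the opposite one. With adult crypt in place of villus, the authors' lists held 979 (26.5%) of the duodenum-exclusive regions on the crypt side and 51 (1.38%) on the colon side. Among all merged regions these shares were 6.74% and 17.3%. The colon-exclusive regions had 630 (29.4%) on the colon side and 11 (0.514%) on the crypt side. The villus and crypt lists share the adult colon libraries and are not separate evidence. The regions with a peak in all 6 juvenile libraries lay on the authors' adult colon lists in 43.3% (against villus) and 45.5% (against crypt), more often than the colon-exclusive regions did.

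Height was compared in the 10243 regions with a peak in all 6 libraries on the full lists. By normalised pileup, most regions were taller in duodenum, where the median was 1.48, 1.48 and 1.68 in libraries 1, 2 and 3, against 0.949, 1.03 and 0.731 in colon. The median difference, duodenum minus colon, was 0.74 on the log2 scale, so the set differed as a whole. Changes are therefore also given after centring each library on its own median, which left a median difference of -0.05. Without centring, limma called 6628 regions (64.7%) higher in duodenum and 40 (0.391%) higher in colon at an adjusted p under 0.05, together 65.1%. After each library had been centred on its own median, 1760 regions (17.2%) were higher in duodenum and 2017 (19.7%) higher in colon, together 36.9%. All 1760 and all 40 calls of the stricter scale for each direction were also made on the other scale. The median SD within a group was 0.20 log2, and 90% of the centred differences lay between -0.88 and 0.81. Differences past 1 log2 unit were called in 256 regions higher in duodenum and 301 higher in colon.

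**Figure D4:**
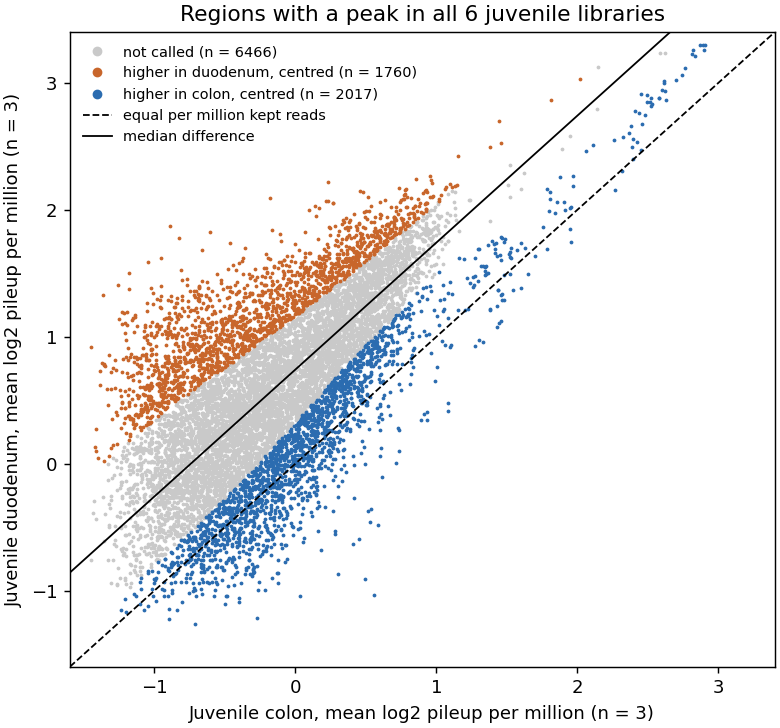
Mean log2 pileup per 1000000 kept reads of the 10243 regions with a peak in all 6 libraries, juvenile colon (n = 3, horizontal) against juvenile duodenum (n = 3, vertical), with 1 point per region coloured by the limma call after centring; the dashed line marks equal normalised height and the solid line the median difference of 0.74. The 1760 regions higher in duodenum lie above the solid line and the 2017 higher in colon lie below it, 1299 of these still above the dashed line.

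The largest centred differences in favour of duodenum passed 1.5 log2 units in pileup and were smaller in fold enrichment. The region chr3:148085662-148086116 stood at 3.24, 3.70 and 4.07 in duodenum 1, 2 and 3 and at 0.615, 0.531 and 0.480 in colon. Its centred difference was 1.97 log2 (SE 0.16, limma adjusted p = 6.02e-19), and without centring it was 2.76. The region chr14:106554201-106554952 stood at 3.35, 3.31 and 3.65 in duodenum and at 0.513, 0.624 and 0.564 in colon, with a centred difference of 1.81 (SE 0.17, limma adjusted p = 9.30e-17). In both regions every duodenum library was far above every colon library. The 10 regions named for duodenum had centred differences of 1.64 to 1.97, and their groups did not overlap in normalised pileup. They were chosen for large differences, so this follows from the choice. Of all 10243 regions, the centred groups did not overlap in 2172 with duodenum higher and in 2534 with colon higher. With the authors' fold enrichment in place of pileup, centred in the same way, chr3:148085662-148086116 stood at 0.64 and chr14:106554201-106554952 at 0.85, and the 10 regions at 0.64 to 1.23. All 10 were still called.

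The largest centred differences in favour of colon were of the same order. The region chr6:82724338-82724755 stood at 1.46, 2.00 and 1.09 in colon 1, 2 and 3 and at 0.549, 0.392 and 0.539 in duodenum. Its centred difference was -2.38 log2 (SE 0.23, limma adjusted p = 1.14e-15), and without centring it was -1.59 (limma adjusted p = 1.24e-07). The region chr6:51128136-51128857 stood at 1.74, 1.44 and 1.11 in colon and at 0.714, 0.392 and 0.539 in duodenum, with a centred difference of -2.19 (SE 0.23). The next, chr11:63735504-63736096, had a centred difference of -1.96. All 10 regions named for colon were also called higher in colon without centring, with limma adjusted p of 1.24e-07 to 0.00223, so their direction was the same on both scales. In centred fold enrichment the first 3 stood at -1.59, -1.45 and -0.91 and the 10 at -1.59 to -0.91, all still called. Of all 2017 regions called higher in colon after centring, 1299 had a higher mean normalised pileup in duodenum, and for these the direction turns with the scale.

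The direction of the centred calls followed the height of the peak. When the regions were split into 4 classes of equal size by mean pileup, 6.40% of the lowest class were called higher in duodenum and 28.0% higher in colon. In the highest class the shares were 24.5% and 13.2%. The very tallest regions went the other way. A pileup cannot pass a ceiling of 1 read per position and strand over the extension length, 176 to 200 reads in the duodenum libraries and 294 to 298 in the colon libraries. In 12 regions at least 1 library reached 90% of its ceiling, and 9 of these were called higher in colon and 0 higher in duodenum after centring. The part of this ceiling in those 9 calls was not tested. There is a floor too, since each region needed a peak in every library. The lowest normalised pileups called were 0.305 to 0.359 in duodenum and 0.272 to 0.312 in colon. The medians of these regions lie further apart, at 1.48 to 1.68 and 0.731 to 1.03. After centring, a weak region can therefore fall further below the median in duodenum than in colon. The part of this floor in the lowest class was not tested.

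Levels in the adult libraries, which were not used for these calls, leaned the same way. Of the 1760 regions higher in juvenile duodenum, 1604 had a peak in all 9 adult libraries. Their median centred difference was 0.29 log2 for adult villus minus adult colon and 0.36 for adult crypt minus adult colon, with 72.8% and 78.7% of them above 0. Of the 2017 regions higher in juvenile colon, 1523 had a peak in all 9 adult libraries, with medians of -0.25 and -0.26 and with 66.2% and 69.5% of them below 0. Over all 8585 such regions 49.9% and 51.9% were above 0. Both adult differences share the adult colon libraries. The region chr14:106554201-106554952 kept its difference in the adult, at 1.92 for villus and 2.38 for crypt, while chr3:148085662-148086116 stood at 1.13 and 0.59. Of the named colon regions, chr13:45484825-45485539 stood at -1.28 and -1.03 in the adult, whereas chr5:137632805-137633731, at -1.77 in the juvenile, stood at 0.91 and 0.42, the opposite direction. These adult differences are descriptions of 3 libraries against 3 without a test.

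The exclusive regions were not spread evenly over the chromosomes. On lists of equal length, 3.27% of the merged regions of chromosome 19 were duodenum-exclusive and 9.42% colon-exclusive, against 10.6% and 6.14% over the genome. Chromosome 11 had 4.54% and 9.59%, while chromosome 3 had 15.7% and 4.87%. The regions with a peak in all 6 libraries leaned the same way on the first 2, with 3.23% called higher in duodenum and 34.9% higher in colon on chromosome 19, and 10.1% and 29.1% on chromosome 11. Chromosome 3 leaned to duodenum in these calls too, with 22.5% against 14.6%. Not every chromosome followed. On chromosomes 9 and 16, 25.1% and 23.1% of these regions were called higher in colon, yet their colon-exclusive shares, 5.98% and 5.11%, were below the genome's. Chromosome X had 11% of its merged regions colon-exclusive and yet 22.1% of its shared regions were called higher in duodenum against 7.51% in colon. These chromosomes were picked after their values had been seen.

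The share of each library's full list was also taken for chromosomes 19 and 11. Both were picked on the same 6 juvenile libraries, so their juvenile shares are a description and add no support. Chromosome 19 held 2.64% ± 0.114 of the peaks of juvenile duodenum and 3.34% ± 0.0528 of those of juvenile colon (SD, n = 3), without overlap (exact permutation p = 0.1, the smallest possible). In the later libraries the shares were 3.19% ± 0.181 (n = 12) in duodenum and 3.23% ± 0.406 (n = 5) in colon, which did not differ beyond their spread (exact permutation p = 0.794). Among duodenum libraries the low share was thus seen in the juvenile ones, whose highest, at 2.76%, stood below the lowest later one, at 2.97%. It was not confined to them. Geriatric proximal colon 3 stood at 2.62%, within the juvenile duodenum range of 2.55% to 2.76%. Chromosome 11 held 5.63% ± 0.155 of the peaks of juvenile duodenum and 7.53% ± 0.199 of those of juvenile colon. There the later libraries differed in the same direction, with 6.66% ± 0.308 in duodenum and 7.24% ± 0.0909 in colon (exact permutation p = 0.00129, adjusted p = 0.00259 over these 2 chromosomes). The later groups overlapped, with 6.19% to 7.19% in duodenum and 7.12% to 7.35% in colon. Base composition and gene density differ between mouse chromosomes, and their part in these shares was not tested.

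**Figure D5:**
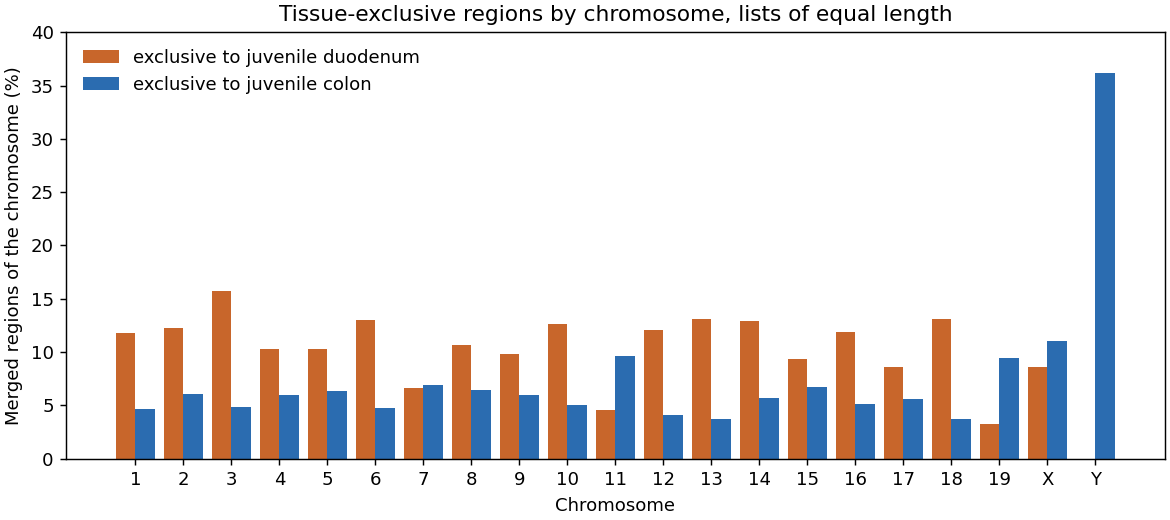
Percentage of the merged regions of each chromosome, on lists of equal length, that were exclusive to juvenile duodenum or to juvenile colon. The duodenum-exclusive share is 3.27% on chromosome 19, 4.54% on chromosome 11 and 15.7% on chromosome 3. Chromosome Y has 42 colon-exclusive regions of 116 and no duodenum-exclusive region. Juvenile duodenum 1 and 3 had only 5 and 2 peaks on chromosome Y on full lists, so few regions there could be duodenum-exclusive.

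Exclusive regions of a tissue lay nearer to others of the same tissue than to those of the other tissue. The median distance from a duodenum-exclusive region to the next one was 73.4 kb, and to the nearest colon-exclusive region 737 kb. For colon-exclusive regions the medians were 129 kb and 338 kb. Within 50 kb, 42.4% of the duodenum-exclusive regions had another of their kind and 8.16% one of the other tissue, against 31.9% and 13.6% for colon. The sets differ in size, 3690 against 2142, which by itself puts duodenum-exclusive regions closer together. Neither these distances nor the window counts that follow were taken over all merged regions. How far they reflect the spacing of open regions in general was therefore not tested.

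In windows of 100 kb, 634 held at least 2 duodenum-exclusive regions, with 1464 regions (39.7%) among them, and 587 of these windows held no colon-exclusive region. The window with the most was chr2:77300001-77400000, where all 6 regions on the equal-length lists were duodenum-exclusive, between 77336041 and 77381028. Next came the windows starting at 121800001 of chromosome 14, 58100001 of chromosome 3, and 87800001 and 51900001 of chromosome 5, with 5 duodenum-exclusive regions each. None of these 5 windows held a colon-exclusive region on either kind of list. For colon, 278 windows held at least 2, and the 5 with the most lay on chromosomes X and Y, led by chrX:120700001-120800000 with 10. On full lists these 5 windows held 3, 3, 3, 1 and 0 colon-exclusive regions. None of their colon-exclusive regions on equal-length lists lacked a peak in later duodenum. On the autosomes, a choice made after seeing the values, chr5:33000001-33100000 led with 6 colon-exclusive regions of 9. There 2 of the 6 had no duodenal peak on the full lists, 5 had a peak in all 5 later colon libraries, and 1 had a peak in all 12 later duodenum libraries.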

How the data were processed

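Per the file headers, the authors called ATAC-seq peaks in each library alone with MACS2 2.1.0.20150731, without a control. Each deposited peak carries, per the file headers, a pileup signal, a −log10 p-value and q-value and a fold enrichment, a ratio to local background. The submitters' processing notes name the build mm9, cutadapt 1.9.1, Bowtie2, SAMtools 0.1.19, bedtools 2.17.0, Picard 2.18.27, deepTools and DiffBind. The sources used here do not give alignment settings or any transposase shift. No read counts per region were used, so no count model was fitted.

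Peaks of the 6 libraries were merged at an overlap of at least 1 bp. Equal-length lists held the strongest 17377 peaks by −log10 p. Pileup was scaled to 1000000 kept reads from the headers. The log2 values of regions with a peak in all 6 libraries were compared with limma 3.58.1 in R 4.3.3, with Benjamini-Hochberg adjustment at 0.05, as they were and centred on each library's median. Fewer cells with an open region and lower accessibility per cell cannot be told apart. The region and limma steps were tested on simulated data. Shares of libraries were compared with two-sided exact permutation tests over libraries. The replicates are separate samples per the labels, which do not tie them to animals, so p-values reflect only how these libraries vary, which may be technical.

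Named regions were the 10 of each direction with the highest mean pileup among exclusive regions, or with the largest called centred difference. The comparison, regions and tests were chosen with earlier results of these data known. Juvenile duodenum and colon share replicate numbers 1 to 3, but were taken at 12 and 15 days, and same-numbered libraries did not deviate together. Gene loci, motifs and sequences are not analysed here, because the reference tables are of another build than mm9.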

Additional observations from a re-analysis of the deposited data

Results flagged for a closer look

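Among the adult and geriatric libraries, geriatric crypt 3 stood apart from the other 5 crypt libraries on lists of equal length. It had a peak in 19% of the juvenile duodenum-exclusive regions, where the other crypt libraries stood at 23.0% to 24.2%. It had a peak in 21.8% of the colon-exclusive regions, where the others stood at 14.5% to 17%. In both cases its gap to the nearest library was large for the range of the group by Dixon's criterion, which chance alone meets in about 1 of 20 groups, and 6 groups were checked. Without this library the difference between villus and crypt in the duodenum-exclusive regions was 7.74 points (exact permutation p = 0.00433) in place of 8.5. The differences between later duodenum and later colon were then 24.5 points for duodenum-exclusive and 26.2 points for colon-exclusive regions.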

How the results depend on the processing

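Counts of exclusive regions stayed within 1.5 times of 3690 and 2142 with a −log10 q of at least 5, with a peak covering 50% of the region, with ranking by fold enrichment, without chromosomes Y and M and the first 3.3 Mb, and without any 1 library (3925 to 4784 and 2471 to 3097). Full lists gave 16501 and 471. The mean Jaccard index between tissues of 0.365 was 0.263 on full lists, 0.389 at a −log10 q of at least 5 and 0.349 to 0.369 without 1 library. The later share of colon-exclusive regions reversed on full lists (-4.44 points), and the villus difference no longer passed there (5.56 points); the cause was not tested.

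Calls in all 6 libraries depend on the scale. Without centring, 6628 were higher in duodenum and 40 in colon, and centring gave 1760 and 2017. The colon count of 40 became 2 per 100 bp of extension, 25 by fold enrichment, 2 on equal-length lists, and 18 to 89 without 1 library. The duodenum count was 9781 (95.5%) per 100 bp of extension and 7845 (76.6%) by fold enrichment, against 64.7% in the main fit. On equal-length lists it was 5679 of 6863 (82.7%), and without 1 library 5291 to 6963. The 5121 regions above the median level gave 4012 (78.3%) and 10 (0.195%). Centred, fold enrichment gave 902 and 1097. The 5121 regions above the median level gave 1133 (22.1%) and 814 (15.9%), centred. The 6863 regions of the equal-length lists gave 1440 (21.0%) and 974 (14.2%), where all 10243 regions gave 17.2% and 19.7%. Thus 46.6% of the centred calls favoured duodenum, but 58.2% above the median level and 59.7% on equal-length lists. Centred calls without Y, M and chromosome starts were 1823 and 1825, and after quantile normalization 1726 and 1719, both added after seeing the data.

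With the replicate number as a block, the count higher in colon without centring was 22 and the centred counts were 1760 and 2030. The numbers share no litter or day in the labels, and the correlations of deviations between same-numbered libraries were 0.01, -0.03 and 0.01. The alternative for gene loci was not run, since it needs an mm9 annotation. The colon libraries are the deeper ones, with 32.0 to 47.9 M kept reads against 16.7 to 22.9 M, but gave fewer peaks and a lower fold enrichment, so a region without a colonic peak is one not called, and absence was not tested.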
